A study of Mus musculus with 12 samples.

Results

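The comparison described here is that of hematopoietic stem cells (HSCs) sorted from fetal livers of mouse embryos that carried the Vav-Cre transgene with HSCs from embryos that did not. Its members are 6 of the 12 libraries of the study, chosen by their labels: 3 Cre negative and 3 Cre positive HSC libraries, with all 32285 genes of their count table. Embryos were C57BL/6 at E14.5. In both groups the Jag1 alleles were floxed (Jag1 f/f), so that the transgene is what the labels set between them: embryos without it keep floxed but intact alleles and are labelled WT, and those with it are labelled Mutant. The Vav promoter drives Cre across the blood lineage, so recombination is aimed at HSCs and at their blood cell descendants alike, and which exons of Jag1 are flanked by the loxP sites is not given in the sources used here. Live (DAPI-) CD45+ Lin- cKit+ Sca1+ CD48- CD150+ cells were sorted, 2000 per library. Their RNA was extracted with a kit for very small samples, treated with DNase and amplified as full-length cDNA in 1 batch of SMART-Seq v4 reactions, a kit that does not mark strand. Nothing in the labels says whether the 3 replicates are separate embryos, so p-values measure the spread between these libraries, which may be technical.

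In the fetal liver, HSCs divide and expand before they seed the bone marrow, among hepatoblasts, sinusoidal endothelium, stellate cells and macrophages of erythroblastic islands. Notch signalling passes between touching cells. A ligand such as Jagged1, the product of Jag1, binds a Notch receptor on the neighbour, proteases and gamma-secretase release the receptor's intracellular part, and this part acts in the nucleus with RBPJ on target genes such as Hes1. Loss of a ligand from a cell is therefore read out mainly in the cells that touch it, and in HSCs where they signal to each other.

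Levels are given as CPM, counts scaled to TMM-corrected depth (edgeR's count-based unit), in the order of replicates 1, 2 and 3, with the Cre negative libraries first. The targeted gene did not separate the groups: Jag1 (chromosome 2, 137081456 to 137116644, on GRCm38) measured 6.53, 6.87 and 1.16 CPM in Cre negative HSCs as against 10.5, 0 and 19.5 CPM in HSCs labelled Cre positive. In Jag1 level, Cre positive replicates 1 and 3 thus lay above each Cre negative library, and Cre positive replicate 2 held 0, which allows up to 0.0428 CPM at 3 reads. That bound covers counting error only, and 287 protein-coding genes had 0 reads in Cre positive replicate 2 alone. The Jag1 difference was 1.04 on the log2 scale with a 95% interval of -3.56 to 5.64 (edgeR unadjusted p = 0.615). Reads from exons outside the floxed part count too, so the level checks the genotype only in part. It was not lower in 2 of the 3 libraries, which does not settle their genotype. All 3 are therefore called the libraries labelled Cre positive, and every direction below rests on those labels.

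The genes of the sort gate were checked next. Ptprc, which encodes CD45, measured 69.9, 117 and 266 CPM in Cre negative HSCs as against 150.4, 196 and 36.9 CPM in HSCs labelled Cre positive, and the stem cell factor receptor gene Kit 76.6, 114 and 183 against 126, 162 and 40.1 CPM. Cre positive replicate 3 was the lowest library for both. Ly6a, the gene of Sca1, had the narrowest range of these genes, at 156, 160.1 and 128 against 127, 150.4 and 190.4 CPM (95% interval of the log2 difference -0.46 to 0.61). Slamf1, the gene of CD150, spanned 8.04 to 74.4 CPM. Cd48, gated out by its protein, lay lower in each library labelled Cre positive, at 12.6, 17.4 and 25.4 against 3.28, 8.53 and 0 CPM, but with an interval of -6.27 to 1.81 on the log2 scale (edgeR unadjusted p = 0.238). Hlf and Mecom, transcription factors that mark HSCs, were counted in each library. Hlf measured 61.9, 83 and 196 CPM in Cre negative HSCs as against 194, 189 and 203 CPM in HSCs labelled Cre positive (log2 difference 0.79, SE 0.41, edgeR unadjusted p = 0.0934), so that the libraries labelled Cre positive lay close together at the upper end of the Cre negative spread. Mecom measured 64.4, 93 and 161 against 170.2, 134 and 124 CPM, with overlap. All 5 marker genes (Kit, Ly6a, Slamf1, Hlf and Mecom) were thus present in all 6 libraries, and 0 of them passed the test between groups.

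**Figure D1:**
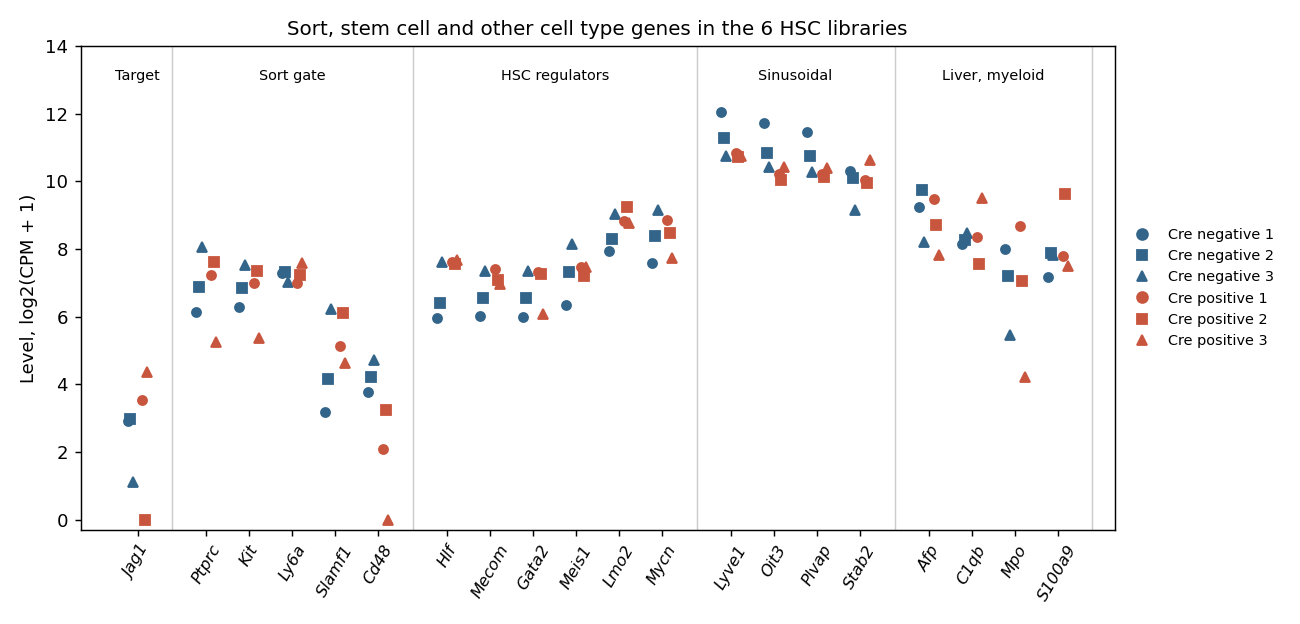
Levels on a log2(CPM + 1) scale of Jag1, of sort gate genes, HSC regulators and markers of sinusoidal, hepatic and myeloid cells, with 1 point per library (blue, Cre negative; red, labelled Cre positive; circle, square and triangle, replicates 1 to 3). Jag1 overlaps between the groups, Cre negative replicate 1 is the lowest library for Hlf, Mecom, Gata2 and Lmo2, and Lyve1, Oit3 and Plvap lie above the HSC regulators drawn in every library.

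Depth was 51982064 to 77463770 reads per library and overlapped between groups, but the libraries labelled Cre positive were less alike. Correlations of log2 CPM across genes were 0.912 to 0.947 within the Cre negative group, 0.788 to 0.848 within the other and 0.804 to 0.906 between groups. The first principal component (39.8% of the variance) held Cre positive replicate 3 apart and the second (25.5%) Cre positive replicate 2. Genes with 0 reads in a library but averaging 5 CPM or more in the other 5 numbered 28, 60 and 148 in Cre negative and 179, 359 and 630 in Cre positive replicates 1 to 3. Over all genes tested, the median SD of log2(CPM + 1) was 0.391 in Cre negative and 0.634 in libraries labelled Cre positive. Y-linked reads were found in Cre negative replicate 2 and Cre positive replicate 2, which lacked Xist, and Xist in the remaining 4 libraries. Cre positive replicate 3 held both kinds, with Ddx3y at 25 CPM and Xist at 18.6 CPM. For each list of genes whose median is given below and moved by over 1.5 times without this library, the value without it is given too.

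**Figure D2:**
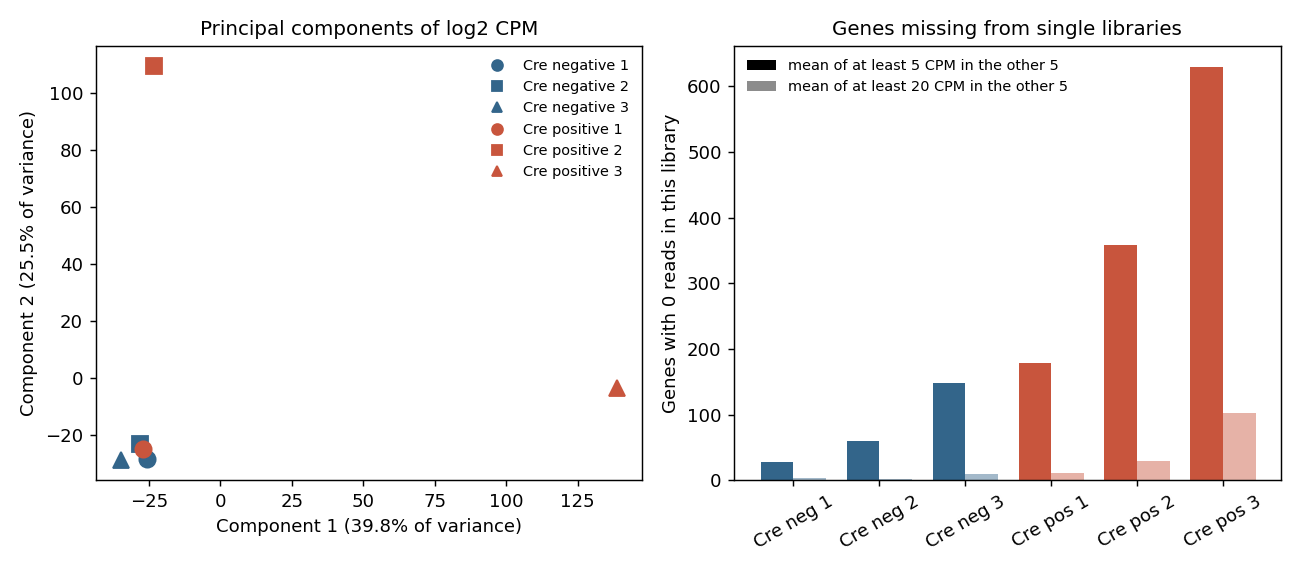
Left, the 6 libraries on the first and second principal components of log2 CPM, with each axis giving its percentage of the variance; right, the number of genes with 0 reads in a library but averaging 5 CPM (dark) or 20 CPM (light) or more over the other 5. Cre positive replicates 2 and 3 stand apart from the other 4 libraries, and the bars reach 630 genes in Cre positive replicate 3.

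Transcripts of ferritin and actin led the most abundant genes of these sorted cells. Ranked per kilobase of exon among the 15 protein-coding genes with the highest CPM, Ftl1, the ferritin light chain, led with a mean of 4397 CPM per kb, followed by the actin gene Actb at 2786, the lipoprotein gene Apoe at 2070.2, mt-Cytb of the mitochondrial respiratory chain at 2002 and the actin-binding peptide gene Tmsb4x at 1977 CPM per kb. The imprinted gene Mest reached 1009.7 CPM per kb, the matrix gene Sparc 809 and Lyve1, a hyaluronan receptor of sinusoidal and lymphatic endothelium, 780.4. Among these 15, Mest, Ehd3 and Atp5b did not overlap between the groups. Mest measured 8450.4, 4274 and 3306 CPM in Cre negative HSCs as against 2927, 2744 and 2197 CPM in HSCs labelled Cre positive (log2 difference -1.03, SE 0.34, edgeR unadjusted p = 0.0164), and Ehd3, a membrane trafficking gene of the liver sinusoid, 3104, 1864 and 1505 against 1474, 1188 and 1225 CPM (edgeR unadjusted p = 0.0283). Cre negative replicate 1 was the highest library for each of Mest, Ehd3, Lyve1 and Sparc. Hnrnpa2b1, a splicing factor, was the most even of the 15 in the Cre negative group, at 1924, 1894 and 1872 against 1926, 1739 and 1609 CPM.

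Transcription factors of HSCs were less abundant. Lmo2, a scaffold of the stem cell transcription factor complex, led the list of 31 with 199 CPM per kb and measured 244, 314 and 522 against 456, 605 and 439 CPM. Mycn, a MYC family factor, followed at 108 CPM per kb and measured 189.9, 333 and 569 against 467, 355 and 214 CPM. All 31 tested members had reads in all 6 libraries. Among 29 surface molecules the highest were the tetraspanin gene Cd81 (1484, 1142 and 1014 against 985, 887 and 1421 CPM) and Esam, an adhesion molecule of HSCs and endothelium. Of 15 genes of antigens in common lineage panels, 9 did not reach the level needed for a test, among them Cd3e and Ly6g.

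Markers of other liver cells were present in every library, in unequal amounts. The 18 endothelial markers took 1.81%, 1.27% and 0.913% of reads in Cre negative and 0.979%, 0.909% and 1.25% in libraries labelled Cre positive. Their median log2 difference was -0.22, and 0.12 without Cre negative replicate 1. With Cre negative replicate 3 left out it was -0.44, and with Cre positive replicates 2 or 3 left out -0.12 and -0.46. Oit3, a sinusoidal gene, measured 3398, 1814 and 1376 against 1177, 1046 and 1367 CPM (edgeR unadjusted p = 0.0276). For 12 of the 18, Cre negative replicate 1 was the highest library (14.9% of all genes tested), and for 19 of the 31 HSC transcription factors it was the lowest (11.6% of all genes tested). Of the 29 HSC surface molecules, 11 were highest and 4 lowest in this library. In bulk RNA, fewer cells of a type and less RNA per cell cannot be told apart. Hepatoblast markers took 0.283%, 0.431% and 0.210% of reads against 0.336%, 0.275% and 0.242%, with Afp, the fetal albumin relative, at 605, 854 and 297 against 712, 414 and 225 CPM. Macrophage markers took 0.221%, 0.202% and 0.210% against 0.270%, 0.121% and 0.284%, and 12 of 16 were lowest in Cre positive replicate 2. Stellate markers took 0.0502%, 0.101% and 0.0841% against 0.0480%, 0.0430% and 0.0733%. Of 16 stellate and mesenchymal markers 13 had the lower mean on the Cre positive side, among them the matrix gene Lum, at 67, 165 and 145 against 24.9, 36.6 and 71.5 CPM (edgeR unadjusted p = 0.0155), and Cxcl12, a chemokine that retains HSCs, at 70.1, 113 and 105 against 14.1, 40 and 62.4 CPM (edgeR unadjusted p = 0.0373). Erythroid markers were balanced, with 7 of 14 on either side and Car2, carbonic anhydrase, at 621, 674 and 878 against 831, 825 and 644 CPM. Of 13 megakaryocyte markers 11 had the higher mean (median 0.65, but -0.41 and 0.99 with Cre positive replicates 1 or 2 left out, and 0.36 without Cre negative replicate 1), and the platelet chemokine gene Ppbp measured 4.64, 13.3 and 0 against 159, 7.13 and 12.8 CPM. B, T and NK cell markers were scarce, at 0.0132%, 0.0157% and 0.0205% of reads against 0.00899%, 0.0129% and 0.0107%. Where these amounts move with a result, their part in it was not tested.

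No gene passed edgeR's test between the groups, so that what follows are levels and their spread. Of 13962 genes tested with edgeR's quasi-likelihood test, 0 (0%) had a Benjamini-Hochberg adjusted p under 0.05, the smallest adjusted p being 0.689; limma-voom also called 0 and DESeq2 133 (0.953%), 27 higher (0.193%) and 106 lower (0.759%). At an unadjusted p under 0.05 stood 892 genes (6.39%), of which 338 (2.42%) had the higher and 554 (3.97%) the lower level in libraries labelled Cre positive. Groups did not overlap for 889 genes with higher (6.37%) and 1303 with lower levels (9.33%). Over all genes tested the median log2 difference was -0.0050, and 49.7% had the higher mean in libraries labelled Cre positive. The median SE was 0.30 for the 4553 genes with at least 50 CPM in both groups and 2.51 for genes with a mean under 5 CPM. The number at an unadjusted p under 0.05 was 1081 with Cre positive replicate 3 left out, 1660 when Cre positive replicate 1 was left out and 459 when Cre negative replicate 1 was left out.

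Of the 133 genes that DESeq2 called, 87 had 0 reads in at least 1 library, 46 had reads in all 6, and 21 reached 50 CPM in both groups. For 66 of the 106 lower calls, no read was counted in the Cre positive group. Among the 27 higher calls, 2 were absent from the whole Cre negative group. The 46 calls with reads throughout include genes given here as chosen after their values were seen. Kcnq1ot1, the imprinted antisense RNA of the Kcnq1 locus, measured 23.3, 87.5 and 33.3 CPM in Cre negative HSCs as against 189, 189 and 175 CPM in HSCs labelled Cre positive. Dus3l, a tRNA dihydrouridine synthase gene, measured 96.9, 114 and 77.4 against 37.5, 35.8 and 40.7 CPM, and Slc35f5, a solute carrier gene, 71, 50.7 and 55.7 against 22.5, 14.5 and 12.9 CPM. Fbxl4, an F-box gene of mitochondrial quality control, measured 12.5, 15.9 and 20.6 against 0.917, 0.0713 and 0.0136 CPM, and so lay under 1 CPM in each library labelled Cre positive. Dexi measured 38.3, 22.2 and 55.4 against 9.08, 3.54 and 3.04 CPM. Cecr2, of a chromatin remodelling complex, measured 2.69, 1.36 and 2.20 against 14.8, 8.28 and 31.8 CPM, and Ralgapa2, a GTPase-activating protein gene, 39.4, 49 and 28.9 against 70.5, 107 and 149.9 CPM. In edgeR all of these had adjusted p-values of at least 0.689. Of the 12 genes per direction named below, DESeq2 also called Fbxl7, Bptf, Golgb1, Prrc2c, Smc6, Rps7, Ogt and Son on the higher side. On the lower side it called Hif1a, Pecam1, Dnpep, Tmem123, Abce1, Myadm, Ptk2, Copb2 and Rasgrp3. It did not call the other genes of that selection.

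**Figure D3:**
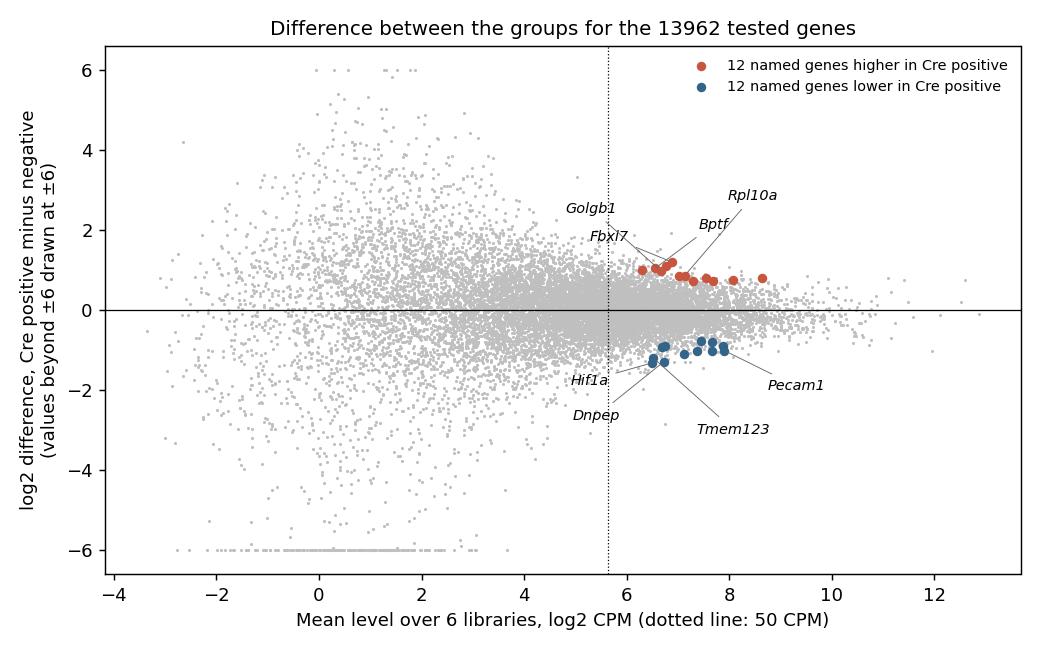
Each grey point is 1 of the 13962 tested genes, by its mean level over the 6 libraries (horizontal, log2 CPM) and its log2 difference, Cre positive minus negative (vertical, drawn at ±6 where larger). Red and blue points are the 12 named genes per direction, taken from protein-coding genes with at least 50 CPM in both groups (dotted line) and no overlap; points spread widely to the left of that line and narrowly to its right.

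Among the 4535 protein-coding genes with at least 50 CPM in both groups, 288 with higher and 446 with lower levels did not overlap. Over all 13962 genes tested, 889 (6.37%) and 1303 (9.33%) did not. The 12 with the smallest p on each side were taken by rule and are descriptions. They are ordered by what their products are known to do, with no test of a common function. On the higher side, Rpl10a and Rps7, ribosomal protein genes, measured 88.1, 112 and 98.8 against 152, 203 and 186 CPM and 153, 149 and 162 against 217, 269.6 and 278 CPM, and Eif4g3, a translation initiation factor, 58.5, 81.5 and 67.3 against 149, 104 and 193 CPM (log2 difference 1.10, SE 0.30). Both ribosomal genes belong to a class with near-identical pseudogene copies, so how reads were divided among copies bears on their counts.

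Bptf, the largest subunit of the NURF chromatin remodeller (chromosome 11, 107033081 to 107132127), measured 66.5, 65.3 and 52.3 CPM in Cre negative HSCs as against 123, 109 and 147 CPM in HSCs labelled Cre positive (log2 difference 1.04, SE 0.25, edgeR unadjusted p = 0.00324). Smc6, of the SMC5/6 complex that guards replicating DNA, measured 162, 123 and 120.0 against 233, 265 and 211 CPM, and H2afj, a histone H2A variant gene, 85.9, 94.5 and 95.3 against 135, 164 and 201 CPM. Son, a scaffold protein of nuclear speckles (chromosome 16, 91647506 to 91679221), measured 261, 312 and 304 against 434, 424 and 663 CPM (log2 difference 0.80, SE 0.23), with Cre positive replicate 3 the highest. Ogt, the O-GlcNAc transferase, measured 166, 221 and 215 against 383, 322 and 308 CPM. Prrc2c, an RNA-binding protein gene, measured 119, 126 and 109 against 185, 194 and 209 CPM. For these genes the lowest library labelled Cre positive lay above the highest Cre negative library by construction of the rule.

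Fbxl7, an F-box subunit of a ubiquitin ligase (chromosome 15, 26540459 to 26895580), measured 75.4, 79.8 and 61.5 against 114, 204 and 178 CPM (log2 difference 1.20, SE 0.28, edgeR unadjusted p = 0.00300) and had the smallest p of the 12. Golgb1, the golgin giantin, measured 59.6, 80.3 and 63.7 against 125, 123 and 155 CPM, and Dync1h1, the dynein heavy chain, 46.7, 64.5 and 44.9 against 90.6, 128 and 95.9 CPM. Without Cre positive replicate 3 the log2 differences of the 12 ranged from 0.55 (Son) to 1.13. Over the fits that left out each library in turn they were 0.55 to 1.40, with a largest edgeR unadjusted p of 0.0341. The 12 were picked from these same libraries for small p and no overlap. Their steady direction thus follows from the rule and is no separate support.

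On the lower side, Pecam1, an immunoglobulin-family receptor of endothelium and HSCs (chromosome 11, 106654217 to 106750628), measured 358, 309 and 292 CPM in Cre negative HSCs as against 176, 140.2 and 159 CPM in HSCs labelled Cre positive (log2 difference -1.01, SE 0.19, edgeR unadjusted p = 0.000822). Ptk2, the focal adhesion kinase, measured 151, 129.6 and 135 against 72, 80.3 and 72.4 CPM, and its adaptor paxillin, Pxn, 133, 134 and 140.3 against 86.2, 69.4 and 59.8 CPM. Myadm, a membrane raft protein gene, measured 319.7, 279 and 219.6 against 164, 107 and 129.7 CPM. Pecam1 is itself 1 of the 18 endothelial markers, whose share of reads overlapped between the groups.

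Hif1a encodes the alpha subunit by which cells respond to low oxygen (chromosome 12, 73901375 to 73947530). It measured 135, 122 and 129 CPM in Cre negative HSCs as against 55.1, 46.8 and 52.8 CPM in HSCs labelled Cre positive, with the smallest p of the 24 (log2 difference -1.32, SE 0.23, edgeR unadjusted p = 0.000484), and its libraries were close together in both groups. Rasgrp3, a Ras exchange factor, measured 370.5, 304 and 243 against 187, 168 and 136 CPM, and Tpx2, a spindle assembly factor, 220.0, 230.2 and 211 against 139, 105 and 139.9 CPM. Copb2, a COPI coat subunit of Golgi transport, measured 285, 230.0 and 256 against 159.6, 157 and 128 CPM, and Plod1, a collagen lysyl hydroxylase, 263, 245 and 159 against 96.4, 102 and 129.8 CPM. Abce1, which recycles ribosomes, measured 168, 171 and 229.6 against 91.2, 65.9 and 106 CPM, and so lay opposite in direction to Rpl10a, Rps7 and Eif4g3. Dnpep, an aspartyl aminopeptidase, measured 175, 154 and 121 against 60.8, 69.6 and 53.4 CPM, and Tmem123, the membrane protein porimin, 129, 128 and 126 against 52.8, 67.6 and 46.7 CPM. Tmem123 was nearly constant among Cre negative libraries. Log2 differences of the 12 ranged from -1.34 to -0.70 without Cre positive replicate 3. Over all fits that left out 1 library they were -1.43 to -0.66, with a largest edgeR unadjusted p of 0.0250. As on the higher side, the rule picked genes with small p and no overlap, so this is no separate support.

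**Figure D4:**
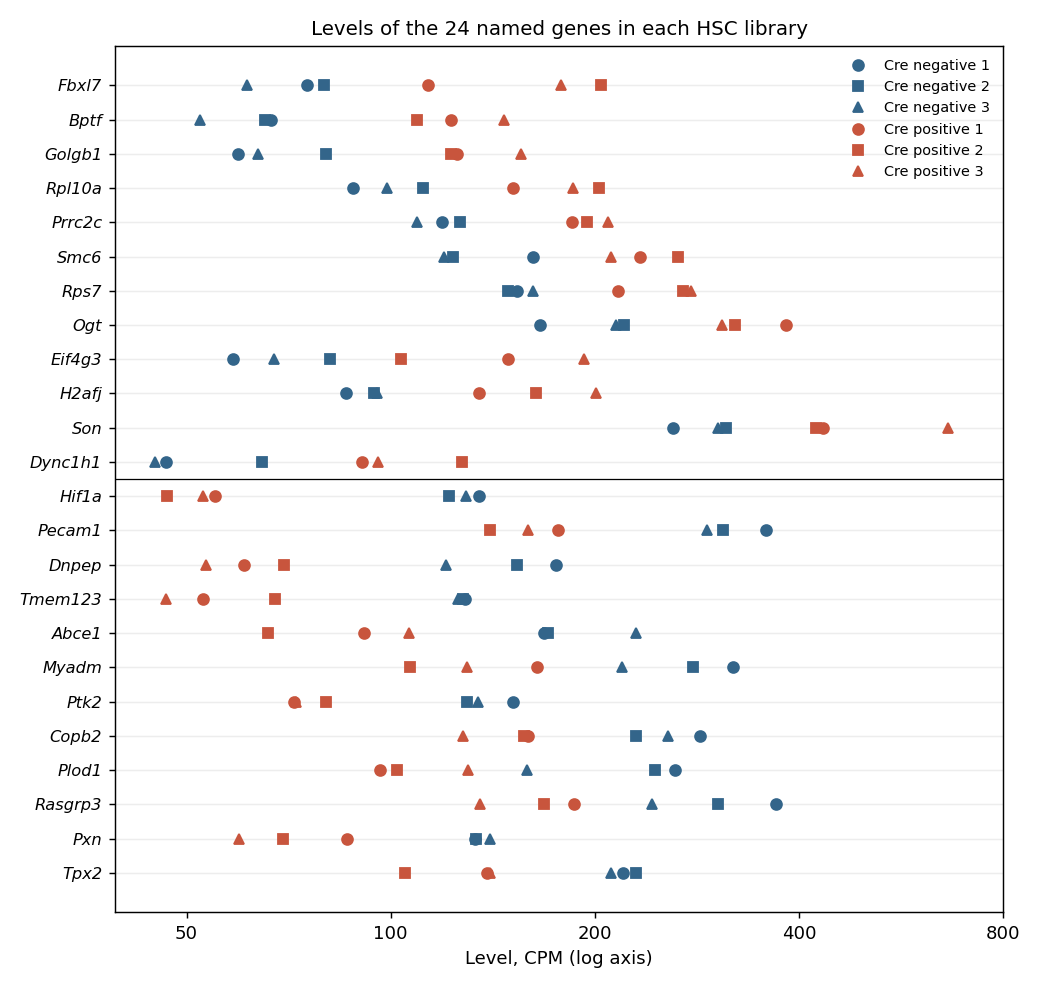
Levels of the 24 named genes in each library on a logarithmic CPM axis, 12 with higher (top) and 12 with lower (bottom) levels in the libraries labelled Cre positive (red) than in the Cre negative ones (blue). The colours do not overlap in any row, as the rule requires, and Hif1a lies at 135, 122 and 129 against 55.1, 46.8 and 52.8 CPM.

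Gene lists are described by how many tested members lay on either side and by their median log2 difference, beside the background over all genes tested (median -0.0050; 2.42% and 3.97% at an unadjusted p under 0.05, and 6.37% and 9.33% without overlap, on the higher and lower side). In every list, 0 members passed in edgeR after adjustment. DESeq2 called members of several lists, among them Hif1a, Insr, Mdm4, Bptf and Malat1. Among the 31 HSC transcription factors and RNA-binding regulators, 24 had the higher mean in libraries labelled Cre positive, with a median of 0.44; 2 stood at an unadjusted p under 0.05 and 6 did not overlap, all on the higher side. The lymphoid and stem cell regulator Ikzf1 measured 6.47, 18.3 and 24.3 CPM in Cre negative HSCs as against 26.5, 55.5 and 75.9 CPM in HSCs labelled Cre positive (log2 difference 1.69, SE 0.61, edgeR unadjusted p = 0.0249). The RNA-binding protein gene Msi2 measured 7.68, 11.4 and 44.8 against 52.8, 74 and 58.6 CPM (edgeR unadjusted p = 0.0501). Cre negative replicate 1 was the lowest library for both. The median was 0.17 without that library, 0.29 without Cre positive replicate 1 and 0.81 without Cre negative replicate 3. The list's share of reads overlapped, at 0.211%, 0.301% and 0.449% against 0.406%, 0.402% and 0.345%. Precision limits the single genes: the 95% interval lay within a log2 difference of 1 either way for 7 of 31.

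Surface molecules and receptors of HSCs lay on both sides: 12 of 29 had the higher mean, the median was -0.09 (0.08 without Cre negative replicate 3, and -0.19 and -0.18 without Cre positive replicates 2 and 1), and all 4 members at an unadjusted p under 0.05 lay lower. Tek, the angiopoietin receptor, measured 381, 287 and 272 CPM in Cre negative HSCs as against 218, 127 and 174 CPM in HSCs labelled Cre positive (log2 difference -0.86, SE 0.26, edgeR unadjusted p = 0.0105), and Esam 1267, 805 and 735 against 634, 587 and 525 CPM (edgeR unadjusted p = 0.0208). Calcrl, a receptor of calcitonin family peptides, measured 373, 264 and 318 against 269, 178 and 175 CPM, and Robo4, a guidance receptor of endothelium and HSCs, 352, 259 and 161 against 177, 111 and 159 CPM. All 4 are also expressed by endothelium and were highest in Cre negative replicate 1, which had the largest endothelial marker share (1.81% of reads), and the part of that share was not tested. Cd34 overlapped, at 226, 273 and 349.6 against 228, 280.1 and 209 CPM.

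Among 33 cytokine receptor and JAK-STAT genes, 24 had the lower mean (median -0.19, and -0.35 to -0.14 over the fits without 1 library, lowest without Cre positive replicate 2). Jak1, the kinase of many cytokine receptors, measured 1112, 729 and 649.7 CPM in Cre negative HSCs as against 564, 349 and 472 CPM in HSCs labelled Cre positive (log2 difference -0.85, SE 0.27, edgeR unadjusted p = 0.0141), again highest in Cre negative replicate 1. Stat6, which acts downstream of interleukin 4, measured 166, 134 and 174 against 102, 84.7 and 133 CPM, whereas Csf2rb, the shared beta chain of the GM-CSF and interleukin 3 receptors, lay higher at 51.1, 37.8 and 60.2 against 84.2, 70.3 and 82.2 CPM. Its GM-CSF partner chain Csf2ra, in the list of restricted progenitor genes, also lay higher, at 24.8, 28.5 and 40.7 against 78.3, 68.6 and 69.4 CPM (log2 difference 1.20, SE 0.33, edgeR unadjusted p = 0.00625). That list of 17 had 11 members with the higher mean and a median of 0.32, which was -0.42 and 0.54 with Cre positive replicates 1 or 3 left out and 0.06 without Cre negative replicate 3. Its most abundant gene, the granule peroxidase Mpo, spanned 17.7 to 411 CPM, with Cre positive replicate 1 at the top and replicate 3 at the bottom. Fcgr3, an Fc receptor gene, measured 78.3, 64.2 and 94 against 138, 118 and 95 CPM, and the granulocyte factor Cebpe 1.66, 0.309 and 0.634 against 6.94, 4.78 and 5.08 CPM.

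Neutrophil markers were highest in 2 of the libraries labelled Cre positive, and monocyte and dendritic cell markers had a higher share of reads in all 3. All 14 tested neutrophil markers had the higher mean in libraries labelled Cre positive (median 0.70), but 9 were highest in Cre positive replicate 2 and 5 in replicate 1. S100a9, a calprotectin subunit, measured 142, 237 and 225 CPM in Cre negative HSCs as against 220.1, 789 and 180.0 CPM in HSCs labelled Cre positive, and without Cre positive replicate 2 its log2 difference was -0.010. The list took 0.123%, 0.162% and 0.182% of reads against 0.243%, 0.412% and 0.0957%, and its median was 0.21 without Cre positive replicate 2 and 1.11 with replicate 3 of that group left out. Of 9 tested monocyte and dendritic cell markers 8 had the higher mean (median 0.85, and 0.65 to 1.13 over the fits without 1 library). The share of reads of all 14 listed markers did not overlap, at 0.0633%, 0.0768% and 0.0994% against 0.135%, 0.152% and 0.113%. Lyz2, the lysozyme of myeloid cells, measured 376, 471 and 719.6 against 987, 1107 and 738 CPM (log2 difference 0.85, SE 0.28, edgeR unadjusted p = 0.0153). The eosinophil granule genes Prg2 and Epx were found in Cre positive replicate 1, at 207 and 45.1 CPM, and had 0 reads in the other 5 libraries.

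Most genes of DNA replication had lower means on the Cre positive side. Of 25 G1/S and replication genes, 18 did so (median -0.37, and -0.43 to -0.23 over the fits without 1 library, the last without Cre positive replicate 3). Mcm5, a subunit of the replicative helicase, measured 378, 319 and 316 CPM in Cre negative HSCs as against 187, 226 and 209 CPM in HSCs labelled Cre positive (log2 difference -0.70, SE 0.19, edgeR unadjusted p = 0.00533). Slbp, which binds histone mRNA stem loops, measured 426, 357 and 352 against 330.2, 268 and 257 CPM. Pola1, the catalytic subunit of DNA polymerase alpha, went the other way, at 52.6, 46.3 and 39.7 against 58.4, 89.8 and 81 CPM (edgeR unadjusted p = 0.0426). Of 22 mitosis genes, 14 had the lower mean (median -0.17, but -0.06 without Cre positive replicate 3, and -0.09, -0.06 and -0.34 with Cre negative replicates 1, 2 or 3 left out). Besides Tpx2, the spindle checkpoint kinase gene Bub1b measured 187, 171 and 129.8 against 133, 114 and 70.4 CPM, while the proliferation marker Mki67 lay higher in each library labelled Cre positive, at 224, 279.5 and 159.5 against 286, 284 and 384 CPM (edgeR unadjusted p = 0.0744). Members of the cell cycle lists thus stood on both sides of the comparison.

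Of 20 cyclin-dependent kinase inhibitors, D cyclins and quiescence genes, 12 had the lower mean (median -0.19, but -0.36 and -0.35 without Cre positive replicates 3 and 1), and 5 did not overlap, all lower (9.33% of all genes tested). Rbl1, the pocket protein p107, measured 46.7, 77.1 and 65.6 CPM in Cre negative HSCs as against 32.2, 27.4 and 36.4 CPM in HSCs labelled Cre positive (log2 difference -0.98, SE 0.34, edgeR unadjusted p = 0.0208), and Txnip, a thioredoxin-binding arrestin, 480.3, 393 and 358 against 312, 243 and 314 CPM (edgeR unadjusted p = 0.0376). Cdkn1c, the p57 inhibitor tied to HSC quiescence, measured 375, 383 and 318 against 313, 232 and 242 CPM. Ccnd2, a D cyclin, measured 274, 246 and 473 against 413, 533 and 667 CPM and had the higher mean. Cdk4 was even, at 909, 805 and 805 against 733, 744 and 682 CPM, though without overlap.

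Most chromatin regulators and nuclear long noncoding RNAs had the higher mean in libraries labelled Cre positive. Of 39 chromatin regulators, 31 did so (median 0.40, and 0.35 to 0.60 over the fits without 1 library). At an edgeR unadjusted p under 0.05 stood 6, all higher (2.42% of all genes tested). On the higher side 12 did not overlap and on the lower 2 (6.37% and 9.33% of all genes tested). Kmt2a, the MLL1 histone methyltransferase that maintains HOX expression, measured 40.7, 56.8 and 55.8 CPM in Cre negative HSCs as against 60.7, 159.8 and 225 CPM in HSCs labelled Cre positive (log2 difference 1.54, SE 0.46, edgeR unadjusted p = 0.0102). Asxl1, of the BAP1 deubiquitinase complex, measured 45.1, 34 and 45.8 against 67.5, 71 and 135 CPM (edgeR unadjusted p = 0.0143). Both were highest in Cre positive replicate 3, without which their log2 differences were 1.11 and 0.73. The most abundant members were the corepressor Ncor1, at 307, 389.7 and 275 against 483, 410.1 and 430.5 CPM, and the DNA methyltransferase gene Dnmt3a, at 211, 355 and 342 against 345, 422 and 428 CPM. For 18 of the 39, Cre positive replicate 3 was the highest library (24.7% of all genes tested), and for 15 Cre negative replicate 1 was the lowest.

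Of 24 long noncoding RNAs that are nuclear or host small nucleolar RNAs, 20 had the higher mean. The median was 0.79 (0.61 to 1.08 over the fits without 1 library). At an edgeR unadjusted p under 0.05 stood 7 (2.42% of all genes tested) and 11 did not overlap (6.37%), all higher. Snhg17, a small nucleolar RNA host, measured 24.4, 22.8 and 37.9 CPM in Cre negative HSCs as against 67.2, 95.9 and 67.7 CPM in HSCs labelled Cre positive (log2 difference 1.44, SE 0.35, edgeR unadjusted p = 0.00360). Malat1, the abundant nuclear speckle RNA, measured 3369, 5833 and 4612 against 6834, 9167 and 7273 CPM (edgeR unadjusted p = 0.0114), and Gas5, another host gene, 232, 269.9 and 254 against 315, 398 and 423 CPM (edgeR unadjusted p = 0.0154). Snhg5, a further host gene, had the lower mean, at 32, 37.5 and 64.3 against 31.5, 13.2 and 36.1 CPM. Long intergenic RNAs as a class took 0.606%, 1.07% and 0.90% of reads in Cre negative and 1.25%, 1.54% and 1.53% in libraries labelled Cre positive, without overlap, and leaving out Malat1 the shares were 0.295%, 0.487% and 0.428% against 0.547%, 0.602% and 0.805%. Genes annotated as antisense took 0.118%, 0.178% and 0.154% against 0.216%, 0.244% and 0.241%, but without strand their reads cannot be told apart from those of the opposite gene. The share of such RNAs was thus higher in each library labelled Cre positive. Counts of detected genes, in contrast, overlapped (16021, 15318 and 14315 against 14386, 13645 and 12747). Cre positive replicates 2 and 3 lay below each Cre negative library, but Cre positive replicate 1 lay above Cre negative replicate 3. The 7 tested mitochondrially encoded protein genes, a list for RNA and library quality, all had the higher mean as well (median 0.55, and 0.29 without Cre positive replicate 3), and all 7 were highest in Cre positive replicate 3 (24.7% of all genes tested). All 13 genes of that list, 4 of them with 0 reads in every library, took 0.387%, 0.590% and 0.437% of reads against 0.573%, 0.565% and 0.860%, with overlap. The part of RNA or library quality in this was not tested.

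Splicing factors lay on both sides. Of 35, 20 had the higher mean (median 0.17). The median was 0.03 and 0.10 with Cre positive replicates 1 or 2 left out. It was 0.08 and 0.26 with Cre negative replicates 1 or 3 left out. On the higher side 9 did not overlap and on the lower 5 (6.37% and 9.33% of all genes tested). Srrm2, a speckle protein of the spliceosome, measured 487, 763 and 682 CPM in Cre negative HSCs as against 944, 1075 and 1115 CPM in HSCs labelled Cre positive (log2 difference 0.70, SE 0.21, edgeR unadjusted p = 0.00990), and Luc7l2, a U1-associated factor, 21.5, 29.9 and 16.1 against 46.9, 51.3 and 84.3 CPM (edgeR unadjusted p = 0.00870). Hnrnpk, an abundant heterogeneous ribonucleoprotein gene, stood opposite, at 1827, 1582 and 1537 against 1315, 1217 and 841 CPM (log2 difference -0.55, SE 0.21, edgeR unadjusted p = 0.0282). This list was measured more tightly than most, with the 95% interval within a log2 difference of 1 either way for 22 of 35 (17.3% of all genes tested).

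In the pathway of the insulin receptor, PI3K, AKT and mTOR, 19 of 30 members had the higher mean (median 0.09, with 0.04 without Cre positive replicate 3 and 0.26 without Cre negative replicate 3 as the ends of the fits without 1 library). Insr, the insulin receptor, measured 18.9, 22.1 and 19.9 CPM in Cre negative HSCs as against 50, 62.3 and 87.1 CPM in HSCs labelled Cre positive (log2 difference 1.71, SE 0.36, edgeR unadjusted p = 0.00138). Pik3r1, the regulatory subunit of PI3K, measured 74.7, 90 and 155 against 181, 257 and 168 CPM (edgeR unadjusted p = 0.0234), and Eif4ebp2, a repressor of translation that mTOR phosphorylates, 77, 48.8 and 58.1 against 89.3, 123 and 97.1 CPM. Akt1, the kinase between them, was more abundant and lay lower, at 605, 506 and 554 against 384, 355 and 465 CPM (edgeR unadjusted p = 0.0331). Insr and Pik3r1 thus lay on the side opposite to Akt1.

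Of 26 genes of p53, its regulators and targets and the BCL2 family, 11 had the higher mean (median -0.11, but 0.02 without Cre negative replicate 1, -0.25 and -0.24 without Cre positive replicates 3 and 1, and 0.09 with a stricter filter on low counts). Mdm4, an inhibitor of p53 and partner of MDM2, measured 19.1, 21.9 and 10.6 CPM in Cre negative HSCs as against 54.6, 75.5 and 71.7 CPM in HSCs labelled Cre positive (log2 difference 1.97, SE 0.40, edgeR unadjusted p = 0.00126). Usp7, which deubiquitinates MDM2 and p53, measured 67.3, 75.6 and 73.7 against 108, 81.8 and 120.3 CPM. Pmaip1, the BH3 protein NOXA, was low throughout, at 3.79, 7.95 and 0.537 against 0.131, 0 and 0 CPM. Members without overlap numbered 2 on the higher and 3 on the lower side, near the shares over all genes tested (6.37% and 9.33%).

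The hypoxia list of 28 was balanced, with 13 members higher and a median of -0.06 (-0.38 without Cre positive replicate 3, and 0.03 without Cre negative replicate 3), although Hif1a had the smallest p of the 24 named genes. Vhl, which marks HIF alpha subunits for degradation, also lay lower, at 45.3, 43.8 and 46.5 CPM in Cre negative HSCs as against 25, 26.9 and 19.4 CPM in HSCs labelled Cre positive (log2 difference -0.93, SE 0.36, edgeR unadjusted p = 0.0313), as did the peptide hormone gene Adm, a HIF target, at 39.2, 26 and 48.2 against 25.7, 10.9 and 10.5 CPM (edgeR unadjusted p = 0.0460). Vegfa, another target, lay higher in each library labelled Cre positive, at 16.1, 11 and 21.2 against 23.8, 21.6 and 62 CPM (edgeR unadjusted p = 0.0795). The targets therefore lay on both sides.

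Of 35 adhesion and migration genes, 18 had the higher mean (median 0.02). The median was -0.21 to -0.08 without Cre negative replicate 3 or any library labelled Cre positive, with -0.11 without Cre positive replicate 3. On the lower side 7 did not overlap and on the higher 2 (9.33% and 6.37% of all genes tested). After Pecam1, the smallest p on the lower side was that of Itgb1, the beta 1 integrin, at 776, 612 and 537 CPM in Cre negative HSCs as against 505, 395 and 412 CPM in HSCs labelled Cre positive (log2 difference -0.55, SE 0.20, edgeR unadjusted p = 0.0266). Rapgef1, an exchange factor for the GTPase Rap1, lay higher, at 47.1, 40.8 and 37.1 against 110.0, 73.3 and 126 CPM (log2 difference 1.31, SE 0.31, edgeR unadjusted p = 0.00274). For 14 of the 35 genes Cre negative replicate 1, the library with the largest endothelial share, was the highest.

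Core Notch genes lay on both sides of the comparison. Of 27 members (receptors, ligands, proteases and modifiers), 15 were higher on average (median 0.11, but -0.21 without Cre positive replicate 3, and 0.33 and -0.08 with Cre negative replicates 2 or 3 left out), and all 3 at an unadjusted p under 0.05 lay lower. Ncstn, the nicastrin subunit of gamma-secretase and the most abundant member, measured 396, 357 and 244 CPM in Cre negative HSCs as against 207, 199 and 221 CPM in HSCs labelled Cre positive (log2 difference -0.67, SE 0.22, edgeR unadjusted p = 0.0178). Numb, an inhibitor of the receptor, measured 139, 105 and 92.5 against 79.4, 44.4 and 61.9 CPM (edgeR unadjusted p = 0.0248). The fringe gene Mfng, a glycosyltransferase of Notch receptors, was even, at 196, 174 and 173 against 142, 232 and 152 CPM.

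Of 16 tested Notch targets, 10 had the lower mean (median -0.37, and -0.43 to -0.25 over the fits without 1 library). The 3 that did not overlap were all lower (9.33% of all genes tested). Myc, the most abundant, measured 347, 267 and 281 CPM in Cre negative HSCs as against 194, 195 and 207 CPM in HSCs labelled Cre positive (log2 difference -0.59, SE 0.19, edgeR unadjusted p = 0.0146). Nrarp, a feedback inhibitor of the pathway, measured 40.4, 23.1 and 23.1 against 19.4, 9.67 and 10.8 CPM (edgeR unadjusted p = 0.0738), and Bcl2 34.3, 60 and 39.7 against 75.8, 95 and 34.3 CPM. Hes1, a widely used readout of the pathway, overlapped at 72.6, 67.3 and 62.3 against 69.1, 70.5 and 31.3 CPM, with a 95% interval of -1.09 to 0.61 on the log2 scale. The 95% interval lay within a log2 difference of 1 either way for 2 of 16.

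Several maintenance programmes had more members on the lower side. Of 22 genes of protein folding and the unfolded protein response, 17 had the lower mean (median -0.50, but -0.21 without Cre negative replicate 1), and 15 were highest in Cre negative replicate 1 and 13 lowest in Cre positive replicate 3. Atf6, a membrane-bound sensor of the response, measured 34.4, 25.8 and 33.6 CPM in Cre negative HSCs as against 9.49, 14 and 6.74 CPM in HSCs labelled Cre positive (log2 difference -1.63, SE 0.52, edgeR unadjusted p = 0.0143), and Hspa5, the chaperone BiP, 2715, 1385 and 1513 against 1269, 1263 and 1131 CPM (edgeR unadjusted p = 0.0503). Ddit3, the stress factor CHOP, lay higher, at 11.5, 10.6 and 10.3 against 16.2, 40 and 29.9 CPM (edgeR unadjusted p = 0.0336).

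Of 24 autophagy genes, 17 had the lower mean (median -0.16, but -0.26 without Cre positive replicate 1), and 5 did not overlap, all lower (9.33% of all genes tested). Atg13, of the initiating ULK complex, measured 63.5, 52.9 and 63.6 CPM in Cre negative HSCs as against 27.1, 19.6 and 28.4 CPM in HSCs labelled Cre positive (log2 difference -1.26, SE 0.34, edgeR unadjusted p = 0.00580), and Atg14, of the PI3K complex that follows it, 29.1, 25.4 and 19.3 against 3.99, 9.62 and 5.50 CPM (edgeR unadjusted p = 0.0178). Lamp1, a lysosomal membrane protein gene, measured 876, 699 and 584 against 564, 429 and 451 CPM (edgeR unadjusted p = 0.0258). These 3 lay at different levels of abundance and on the same side.

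Of 26 Fanconi and DNA repair genes, 19 had the lower mean (median -0.32, but -0.56 without Cre positive replicate 1). On the lower side 6 did not overlap and on the higher 1 (9.33% and 6.37% of all genes tested). Fancm, the translocase that anchors the Fanconi core complex, measured 22.8, 43.6 and 47.1 CPM in Cre negative HSCs as against 1.14, 9.81 and 0.273 CPM in HSCs labelled Cre positive (log2 difference -3.34, SE 1.22, edgeR unadjusted p = 0.0261). Parp1, which senses strand breaks, measured 236, 199.8 and 273 against 152, 174 and 161 CPM (edgeR unadjusted p = 0.0287). For 13 of the 26, Cre positive replicate 3 was the lowest library (26.7% of all genes tested).

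Of 21 immediate early and heat shock genes, which can respond to handling, 16 had the lower mean (median -0.36, but -0.18 without Cre negative replicate 1). The 5 that did not overlap were all lower (9.33% of all genes tested). Dnajb1, an HSP70 cochaperone, measured 123, 113 and 143 CPM in Cre negative HSCs as against 81, 94.6 and 81.1 CPM in HSCs labelled Cre positive (log2 difference -0.56, SE 0.23, edgeR unadjusted p = 0.0396), and Hspa8 1569.6, 1130.2 and 1251 against 1036, 971 and 1034 CPM. The inducible Hspa1b had 2.01, 3.66 and 3.32 CPM in Cre negative libraries and 0 reads in each library labelled Cre positive. Of 23 interferon response genes, 11 had the higher mean (median -0.0031, with either sign under other scalings and from -0.35 without Cre positive replicate 2 to 0.22 without Cre negative replicate 3, with 0.03 without Cre positive replicate 3), and the members with the smallest p pointed apart. Irf9, the DNA-binding part of the interferon complex ISGF3, measured 80.6, 68 and 66.4 against 30.3, 35.2 and 33.4 CPM (log2 difference -1.12, SE 0.29, edgeR unadjusted p = 0.00513), and the immunoproteasome subunit gene Psmb8 64.1, 52.8 and 75.9 against 80.7, 129.6 and 153 CPM (log2 difference 0.91, SE 0.31, edgeR unadjusted p = 0.0196).

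The 12 tested genes of the fetal programme list had reads in every library. Which cells in the libraries these reads came from was not tested. Of 12, 5 had the higher mean (median -0.09, but 0.01 and 0.22 with Cre negative replicates 2 or 3 left out, and 0.21 and -0.19 with Cre positive replicates 2 or 3 left out). Hmga1, a chromatin architectural protein gene, measured 79.3, 61.7 and 78.4 CPM in Cre negative HSCs as against 137, 121 and 96.7 CPM in HSCs labelled Cre positive (log2 difference 0.69, SE 0.26, edgeR unadjusted p = 0.0272), and its relative Hmga2 45.7, 56.8 and 71.4 against 68.2, 90.6 and 93.6 CPM (edgeR unadjusted p = 0.108). The growth factor gene Igf2, the imprinted RNA H19 and the RNA-binding protein genes overlapped, with H19 at 512, 389 and 365 against 509, 407 and 961 CPM and Cre positive replicate 3 highest.

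**Figure D5:**
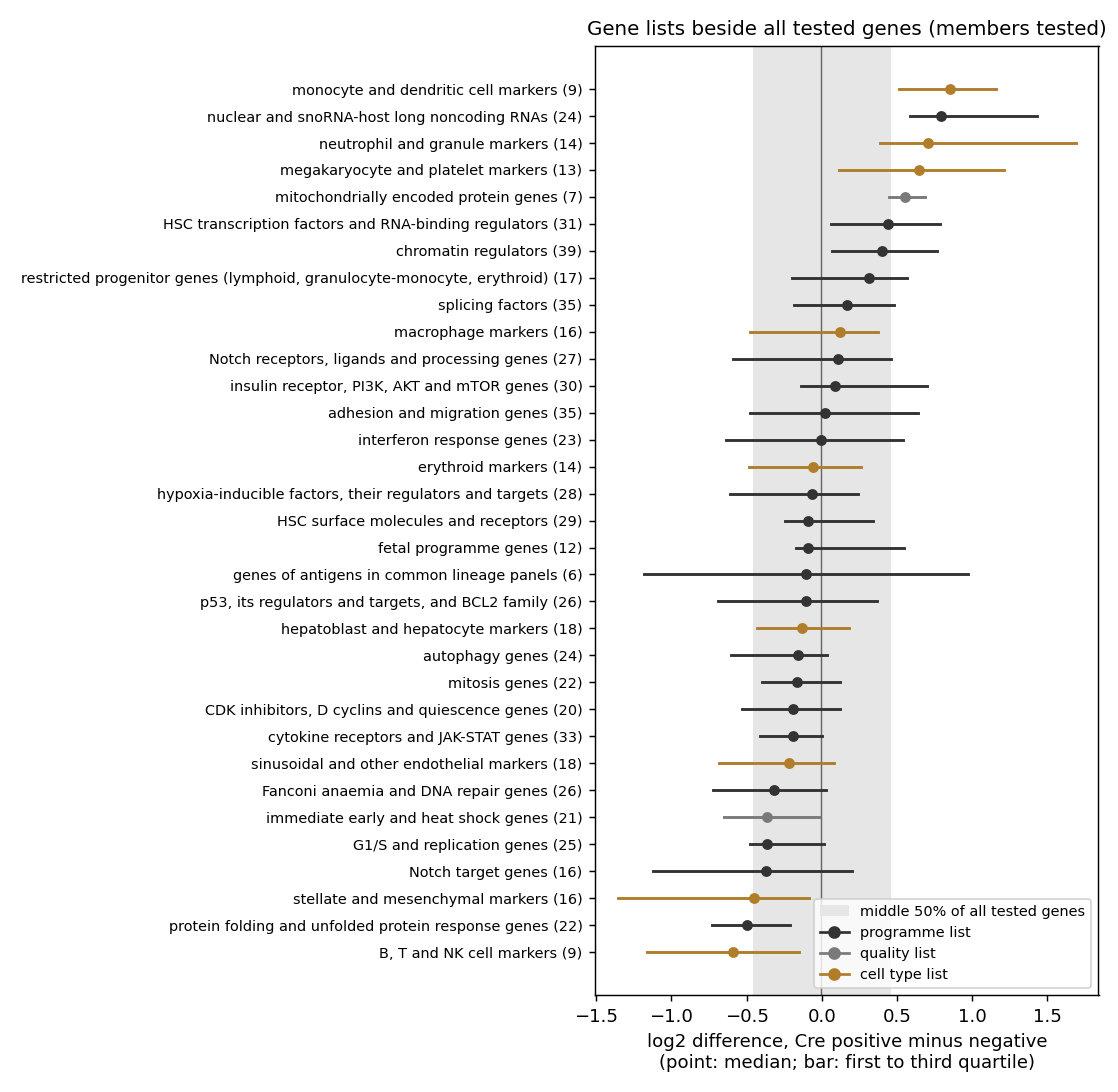
Median log2 difference (point) and the range from the first to the third quartile (bar) of each gene list, Cre positive minus negative, with the number of tested members in parentheses; the grey band is the middle 50% of all 13962 tested genes. Noncoding RNAs (0.79), HSC transcription factors (0.44) and chromatin regulators (0.40) lie to the right, and folding genes (-0.50) and replication genes (-0.37) to the left; most bars overlap the band.

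Genes missing from libraries differed in number between the groups. Among protein-coding genes, 137 were missing from the 3 libraries labelled Cre positive and read in each Cre negative one, 32 of them at 5 CPM or more in the Cre negative mean, and 7 showed the reverse, 0 of them at that level. Those with the highest Cre negative means were Kctd7 (4.25, 11.7 and 34.3 CPM), a potassium channel tetramerization domain gene, C1qtnf9 (32, 3.00 and 14.6 CPM), a secreted C1q-like protein gene, Pipox (9.98, 27 and 9.71 CPM), a peroxisomal oxidase gene, Pde1a (8.80, 28.9 and 8.05 CPM), a phosphodiesterase gene, Cpe (15, 16.1 and 6.18 CPM), carboxypeptidase E, and the zinc finger gene Zfp946 (4.85, 16.3 and 10.1 CPM). In the reverse direction, 2310034G01Rik had 5.22, 5.16 and 4.43 CPM in libraries labelled Cre positive and 0 reads in Cre negative libraries. At depths of this kind 3 reads correspond to 0.0386 to 0.0561 CPM, a floor that covers counting error only, since amplified reads are not independent molecules.

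Losses in single libraries were more frequent and uneven. Of 1129 protein-coding genes with 0 reads in exactly 1 library, that library was a Cre negative one for 9, 29 and 89 genes and one labelled Cre positive for 118, 287 and 597, each in the order of replicates. Some were well expressed elsewhere: E2f6, a repressor of the E2F family, measured 97.3, 90.5 and 138 against 95.1, 132 and 0 CPM, Tmem161a 81.1, 68.1 and 85.6 against 55.7, 49.9 and 0 CPM, and the ribosome assembly gene Wdr75 72.5, 57.1 and 47.6 against 59.8, 48.2 and 0 CPM. Gdap2 was missing from Cre positive replicate 2, at 55.3, 42.8 and 37 against 48.5, 0 and 81 CPM. These genes show that a 0 in a single library occurred at levels near 100 CPM in the others.

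Single libraries also carried genes at levels far above the other 5. In Cre negative replicate 1 it was Ccn2, a matricellular protein gene, at 372, 99.7 and 94.6 against 35.6, 20.3 and 22.5 CPM. Its group difference (log2 difference -2.85, SE 0.59) thus included 1 library well above the other 2, which also lay above each library labelled Cre positive. DESeq2 called Ccn2 (DESeq2 adjusted p = 0.000182) and edgeR did not (edgeR adjusted p = 0.689). Mpzl1, an adhesion receptor gene, measured 639, 249 and 223 against 206, 141 and 147 CPM. In Cre positive replicate 2 it was S100a9, S100a8 (131, 185 and 174 against 222, 664 and 156 CPM) and Ramp1, a receptor activity modifying protein gene (36.9, 52.3 and 72.5 against 74.8, 204 and 68.2 CPM). In Cre positive replicate 3 it was Tln1, the integrin-binding talin (244, 209 and 232 against 249, 224 and 693 CPM), and Prpf8, the core spliceosome protein (64.7, 56.8 and 36.7 against 44.5, 78.5 and 207 CPM). On the other side, Cre negative replicate 1 was lowest for the HSC and lymphoid factor Bcl11a (17.6, 51.3 and 71.3 against 55.1, 87.1 and 98.6 CPM) and for Ikzf2 (15.4, 53.1 and 49 against 90.3, 114 and 57.9 CPM). Cre positive replicate 2 nearly lacked the caveolin gene Cav1 (105, 46.2 and 98.9 against 46.1, 2.07 and 71.7 CPM). Among protein-coding genes averaging 50 CPM or more in the other 5 libraries, 12 and 30 lay more than 2-fold above all others (on CPM + 1) in Cre positive replicates 2 and 3, and 120 and 354 more than 2-fold below them, against at most 6 above and 19 below in the other 4 libraries.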

How the data were processed

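Bulk RNA sequencing of 6 HSC libraries was analysed; the macrophage table was not used. The deposited table holds read counts by gene as whole numbers, without normalization. The submitters' processing notes name STAR 2.7.6a, featureCounts, Subread 2.0.1 and the build GRCm38 (mm10). Settings for strand, multiply mapped reads and annotation are not stated there, so overlapping, antisense and near-identical genes are uncertain. Names and exon lengths came from GENCODE M21, which lacks 127 of 32285 identifiers (0.0224% to 0.0352% of reads). The number of count columns with no matching sample was 0. Genes kept by filterByExpr (13962) were TMM-scaled and tested with edgeR 4.0.16 (robust quasi-likelihood, R 4.3.3, Benjamini-Hochberg adjusted p under 0.05), checked on simulated data. Alternatives were DESeq2 1.42.0, voom in limma 3.58.1, other scalings and filters, the replicate number as a block, and leaving out each library. Chi-square values per degree of freedom within groups (220 to 844) gave no sign that a library was deposited again within its group. Libraries of different groups were not compared in this way, and their correlations of log2 CPM reached at most 0.906.

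Named by rule were Jag1, gate and marker genes, the 15 highest protein-coding genes, per list the 2 highest members and the 3 with the smallest p, the 12 genes per direction with the smallest p (at least 50 CPM in both groups, no overlap, not sex-linked), and up to 6 genes per pattern of absence and 4 per library and side for single-library extremes. Other list members given as levels were chosen after their values were seen. Some genes that the rule names are not reported here. The members, the 35 gene lists and this rule were chosen with earlier results of these data known, so lists are described by counts and medians, with no test.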

Additional observations from a re-analysis of the deposited data

How the results depend on the processing

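No gene passed in edgeR under any scaling, filter, block or left-out library that was run (0 to 0 over the fits that left out 1 library each), nor in limma-voom; DESeq2 called 133. The count at an unadjusted p under 0.05 (892) was 459 to 1660 over the fits that left out 1 library, lowest without Cre negative replicate 1 and highest without Cre positive replicate 1, and 722 to 1315 under other scalings, filters and tools. The count of genes without overlap (2192) was 3046 to 4720 with 3 libraries against 2, a comparison that fewer libraries pass more easily. With the replicate number as a block, 628 genes stood at an unadjusted p under 0.05 and 0 passed. Deviations of same-numbered libraries correlated at 0.0107, 0.0115 and -0.0334, within the -0.0586 to 0.0428 of libraries with different numbers. The numbers thus gave no sign of pairing, but with 3 libraries per group this check cannot exclude it. Among 116 log2 differences of named genes, 26 values passed the threshold in DESeq2 and 2 changed sign: S100a9 was -0.010 without Cre positive replicate 2 (-0.010 to 1.32 over the left-out libraries) and Cd79b, a B cell receptor gene, 0.28 without Cre negative replicate 3 (-0.79 to 0.28). The cause of these changes was not tested. The median SE was 2.51 for genes with a mean under 5 CPM, where counting error and spread between libraries were not separated.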

Other observations

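Differences varied with exon length, taken as all annotated exons of a gene merged, as a description over genes that are not independent. With the tested genes split by exon length into 5 bins of equal size, the median log2 difference was 0.24 in the shortest bin (90 to 2197 bases), then -0.07, -0.15 and -0.10, and 0.09 in the longest (7336 bases or more). In the shortest bin 63.2% of genes had the higher mean in libraries labelled Cre positive, and in the middle bin 40.8%. Binned by level, the genes with the highest mean CPM had a median of -0.07 and those with the lowest 0.08.

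The predicted gene Gm42418, called by DESeq2, measured 74.4, 121 and 84.1 CPM in Cre negative HSCs as against 156, 185 and 709 CPM in HSCs labelled Cre positive, with Cre positive replicate 3 far above the other 5.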
